A study of Rattus norvegicus with 29 samples.

Results

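The transcripts that differed between ethanol and water when both drinking schedules were given equal weight were examined in the shell of the nucleus accumbens. The rats were of the alcohol-preferring (P) line, which was selected over generations for high voluntary drinking of ethanol. All 29 arrays of the series entered. The ethanol arrays were 10 from P rats given continuous ethanol and 10 from P rats given limited access to ethanol, and the controls were 9 arrays from P rats that drank water alone. Total RNA was profiled on Affymetrix rat expression arrays, on which a probe set is a group of short probes for one transcript, and values are log2 intensities, so that a difference of 1 is a doubling. The labels give no age, sex, ethanol concentration, length of exposure or interval between the last drink and dissection, and do not say whether each array came from a separate animal. The p-values therefore rest on the spread from sample to sample, part of which may be technical. According to the series' design each group has 10 samples, and 1 of water was not analysed here.

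The shell of the nucleus accumbens is part of the ventral striatum, where most neurons are GABA-releasing medium spiny neurons that integrate dopamine and glutamate input during reward. When neurons fire, calcium and MAP kinase signalling acts through CREB and other factors already present in the cell to switch on immediate early genes within minutes. These encode transcription factors such as Fos, Junb and Nr4a1, synaptic proteins such as Arc and the short form of Homer1, and phosphatases such as Dusp1 that damp the kinases again.

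Of the 19 medium spiny neuron markers listed, 18 were above the filter on dim probe sets, with Drd1, Drd2, Penk, Pdyn and Tac1 among them. Array medians lay between 8.17 and 8.21 and pairs of arrays correlated at 0.986 to 0.998 over all probe sets, with 0 identical pairs. There were 5 arrays (3 water and 2 limited access) that stood apart on the second principal component, and results that changed without them are given below. Array SD, the 3 prime minus 5 prime signal of the beta-actin and GAPDH controls and the first 3 principal components were compared between the 20 ethanol and 9 water arrays. None of these 6 measures passed (exact permutation tests, smallest adjusted p = 0.390).

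With the schedules pooled, ethanol arrays had higher levels of a set of immediate early genes and lower levels of a few transcripts. Of 21730 probe sets tested, 19 (0.0874%) passed at an adjusted p under 0.05 (limma, Benjamini-Hochberg). The 11 that rose were 0.0506% and the 8 that fell 0.0368% of those tested, with sizes between 0.17 and 0.71 on the log2 scale. The risers stood for 9 named genes, which were Homer1, Fos, Nr4a1, Arc, Dusp1, Ier2, Junb, Gadd45g and Jun. The fallers with a name were Lims2, Nat8f3 and a different Homer1 probe set. A further 1 riser and 5 fallers had no gene symbol in the platform table. Without adjustment, 2214 probe sets (10.2%) had a p under 0.05, of which 1244 were higher (5.72%) and 970 lower (4.46%). A further 9 (0.0414%) had an adjusted p between 0.05 and 0.10.

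**Figure D1:**
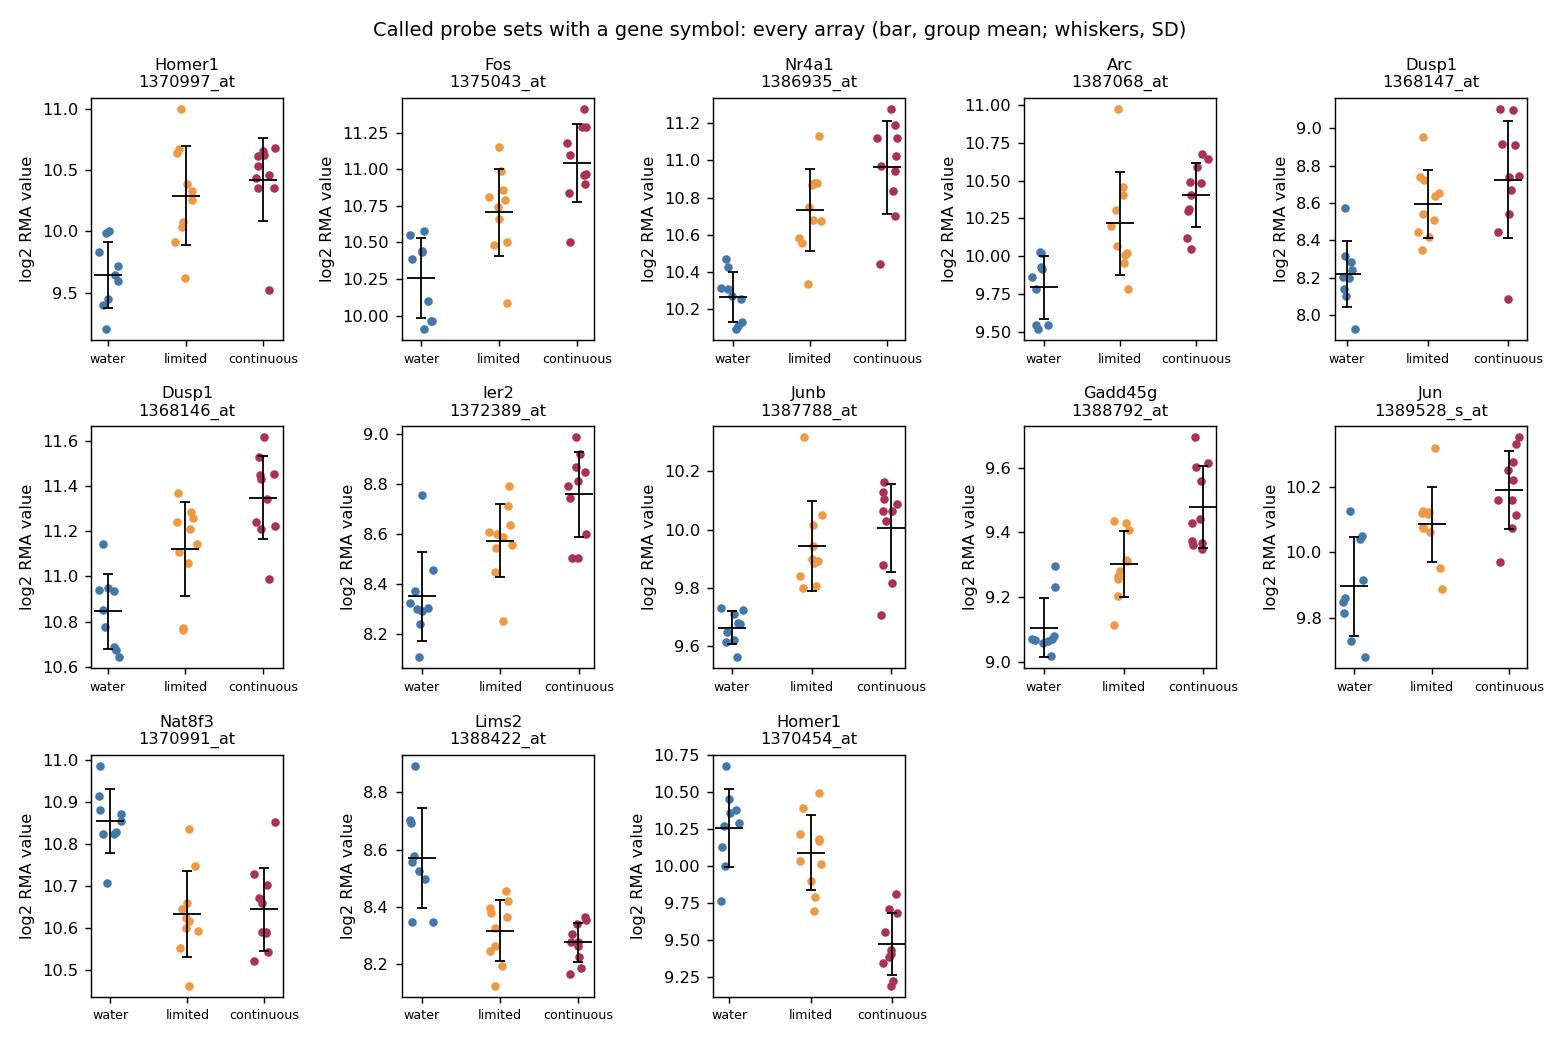
Log2 level of each array (points) for the called probe sets with a gene symbol, in water (n = 9), limited access (n = 10) and continuous ethanol (n = 10) arrays. Horizontal bars are group means and whiskers the SD. The ethanol points of the risers lie mostly above the water mean, with some overlap, and Junb has 19 of 20 ethanol arrays above every water array.

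Among the transcription factors, Nr4a1, an orphan nuclear receptor induced by activity, had the smallest p of the genes that rose. Its lowest, median and highest levels were 10.10, 10.27 and 10.47 in water, 10.34, 10.71 and 11.13 with limited access and 10.44, 10.99 and 11.28 with continuous ethanol. The groups overlapped little, since 18 of 20 ethanol arrays, 9 of each schedule, lay above every water array. Nr4a1 rose by 0.58 ± 0.08 (SE) (adjusted p = 6.7e-04, limma). Its change was 0.47 ± 0.09 with limited access and 0.70 ± 0.09 with continuous ethanol.

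Fos, which pairs with Jun proteins to form AP-1, is the most used marker of recently active neurons. Its levels were 9.91, 10.38 and 10.58 (lowest, median and highest) in water, 10.08, 10.76 and 11.15 with limited access and 10.51, 11.03 and 11.41 with continuous ethanol. The limited arrays overlapped the water range more than the continuous arrays did, with 7 of 10 and 9 of 10 above every water array. The pooled rise was 0.62 ± 0.11 (SE, adjusted p = 0.00697, limma), or 1.53-fold. A dimmer Fos probe set, 1371283_at, did not pass (0.08 ± 0.05, adjusted p = 0.575), so the Fos call rests on 1 of its 2 tested probe sets.

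Junb, a partner of Fos in AP-1, showed the cleanest separation of the risers. Water arrays ran from 9.56 through a median of 9.68 to 9.73, limited arrays from 9.80 through 9.89 to 10.32 and continuous arrays from 9.70 through 10.06 to 10.16. All 10 limited arrays and 9 of 10 continuous arrays were above every water array. Junb rose by 0.31 ± 0.05 (SE, adjusted p = 0.00449, limma).

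Jun and Ier2 changed less and overlapped more. Jun, the usual partner of Fos, was called on probe set 1389528_s_at only, from 9.68 to 10.13 in water (median 9.86), 9.89 to 10.32 with limited access (median 10.10) and 9.97 to 10.35 with continuous ethanol (median 10.19). It rose by 0.24 ± 0.05 (SE), with an adjusted p of 0.0462 (limma) that was the largest of the 19 calls. The other Jun probe sets had differences of 0.09 and 0.18 and did not pass (adjusted p = 0.515 and 0.378), so the probe sets of this gene disagree about the call. Ier2, a small nuclear protein induced by growth factors and activity, ran from 8.11 to 8.76 in water (median 8.30), 8.25 to 8.79 with limited access (median 8.59) and 8.50 to 8.99 with continuous ethanol (median 8.80). Only 7 of 20 ethanol arrays, 1 of them limited, exceeded every water array, although 19 of 20 were above the water mean. Ier2 rose by 0.32 ± 0.06 (SE, adjusted p = 0.0335, limma).

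Among synaptic effectors, Arc, which regulates AMPA receptor trafficking, ran from 9.52 to 10.03 in water (median 9.86), 9.78 to 10.97 with limited access (median 10.13) and 10.05 to 10.68 with continuous ethanol (median 10.44). All 10 continuous arrays and 6 of 10 limited arrays were above every water array. Arc rose by 0.52 ± 0.10 (SE), or 1.43-fold (adjusted p = 0.0223, limma). The feedback inhibitor Dusp1, a phosphatase that inactivates MAP kinases, was called on both of its probe sets, with rises of 0.39 ± 0.07 on 1368146_at and 0.44 ± 0.09 on 1368147_at (adjusted p = 0.0128 and 0.0335, limma). On 1368146_at, water arrays ran from 10.64 to 11.14 (median 10.85), limited arrays from 10.76 to 11.37 (median 11.18) and continuous arrays from 10.99 to 11.61 (median 11.39). The limited arrays again lay between the others, with 6 of 10 above every water array against 9 of 10 continuous arrays.

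Gadd45g, a stress and activity induced regulator of growth arrest and DNA demethylation, ran from 9.02 to 9.30 in water (median 9.07), 9.11 to 9.43 with limited access (median 9.30) and 9.35 to 9.69 with continuous ethanol (median 9.43). Continuous arrays did not overlap the water arrays, and 5 of 10 limited arrays did. Gadd45g rose by 0.28 ± 0.04 (SE, adjusted p = 0.00179, limma).

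Homer1, a postsynaptic scaffold that links glutamate receptors to calcium stores, moved in opposite directions on 2 probe sets. On 1370997_at, levels were 9.20 to 10.00 in water (median 9.65), 9.62 to 11.00 with limited access (median 10.29) and 9.52 to 10.68 with continuous ethanol (median 10.49). Most ethanol arrays, 17 of 20, lay above every water array, and the rise of 0.71 ± 0.13 (SE, adjusted p = 0.0128, limma), or 1.64-fold, was the largest of the 19. On 1370454_at, levels were 9.77 to 10.68 in water (median 10.29), 9.70 to 10.49 with limited access (median 10.10) and 9.19 to 9.81 with continuous ethanol (median 9.42). This probe set fell by 0.48 on the log2 scale (SE 0.09, adjusted p = 0.0223, limma), with 9 of 10 continuous arrays but 1 of 10 limited arrays below every water array. The other 3 Homer1 probe sets differed by 0.02 to 0.03 (adjusted p = 0.895 to 0.926). The platform table pairs all of these probe sets with Homer1 but does not say which transcript form each one reads.

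The promoters of the 6 risers that have an entry in the sequence table are shown next, because these genes rose together and their proximal sequences can be read for the CREB element. The sequences are the 250 bases before the annotated start, from RefSeq (assembly GRCr8). They lie on the plus strand at chr7:134259888-134260137 for Nr4a1, chr10:17184603-17184852 for Dusp1, chr19:40399123-40399372 for Ier2, chr19:40080876-40081125 for Junb and chr2:26278762-26279011 for Homer1, and on the minus strand at chr17:13530352-13530601 for Gadd45g. Capitals mark TGACG on either strand (the core of the CREB element, CRE, which reads CGTCA on the opposite strand), including the full CRE TGACGTCA that contains it.
Nr4a1: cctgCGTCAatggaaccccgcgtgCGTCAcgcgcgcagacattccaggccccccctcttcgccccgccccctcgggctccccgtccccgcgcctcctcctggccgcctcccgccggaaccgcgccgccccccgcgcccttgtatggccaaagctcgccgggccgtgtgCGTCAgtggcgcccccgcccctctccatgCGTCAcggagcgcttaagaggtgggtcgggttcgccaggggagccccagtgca
Dusp1: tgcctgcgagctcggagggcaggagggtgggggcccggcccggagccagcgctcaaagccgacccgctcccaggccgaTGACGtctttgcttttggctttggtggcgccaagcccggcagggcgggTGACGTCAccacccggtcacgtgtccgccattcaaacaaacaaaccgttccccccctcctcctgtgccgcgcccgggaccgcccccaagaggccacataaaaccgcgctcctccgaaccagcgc
Ier2: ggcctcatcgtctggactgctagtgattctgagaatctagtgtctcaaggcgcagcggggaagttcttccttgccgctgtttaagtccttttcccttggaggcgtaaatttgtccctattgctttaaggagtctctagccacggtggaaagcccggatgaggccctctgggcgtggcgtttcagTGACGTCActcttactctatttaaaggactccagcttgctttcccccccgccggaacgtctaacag
Junb: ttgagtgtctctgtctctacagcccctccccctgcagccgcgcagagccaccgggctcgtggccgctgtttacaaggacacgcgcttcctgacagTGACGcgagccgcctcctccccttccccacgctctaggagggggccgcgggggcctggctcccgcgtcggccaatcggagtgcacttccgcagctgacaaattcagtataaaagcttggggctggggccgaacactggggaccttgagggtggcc
Homer1: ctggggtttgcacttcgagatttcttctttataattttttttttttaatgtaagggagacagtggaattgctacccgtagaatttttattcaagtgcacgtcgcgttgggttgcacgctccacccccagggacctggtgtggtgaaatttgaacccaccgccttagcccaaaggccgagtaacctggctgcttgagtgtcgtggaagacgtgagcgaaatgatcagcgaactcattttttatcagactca
Gadd45g: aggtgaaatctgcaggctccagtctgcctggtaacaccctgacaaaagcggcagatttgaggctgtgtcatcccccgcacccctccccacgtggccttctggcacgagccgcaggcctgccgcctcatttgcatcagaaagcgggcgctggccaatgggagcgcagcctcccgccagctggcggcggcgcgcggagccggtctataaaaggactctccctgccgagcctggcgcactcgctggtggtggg

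The 11 called genes were matched to this table by symbol, and 8 had an entry. Dusp1 and Ier2 each held 1 full CRE, 124 and 66 bases before the start, against 1.59% of 33469 promoters of the same length. Nr4a1 held 4 core elements, at 246, 226, 82 and 53 bases before the start, and Junb 1 at 155. Lims2, which fell, also held 1, at 130, in its entry starting at chr18:23827914, and 0 in its entry starting at chr18:23837454. The core element occurred in 18.2% of all promoters. Neither the AP-1 motif TGANTCA (6.34% of promoters) nor the CArG box (1.5%) was found in the 8 genes, and Homer1, Gadd45g and Nat8f3 held 0 of the motifs searched. Both strands were searched, and a match is a run of letters and not a measured binding site.

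Besides the Homer1 probe set, the named genes that fell were Lims2 and Nat8f3. Lims2, a LIM-domain adaptor of integrin adhesions, ran from 8.35 to 8.89 in water (median 8.56), 8.12 to 8.46 with limited access (median 8.34) and 8.17 to 8.36 with continuous ethanol (median 8.28). It fell by 0.28 on the log2 scale (SE 0.05, adjusted p = 0.00822, limma), with all 20 ethanol arrays below the water mean and 13 below every water array. Nat8f3, a member of the Nat8 family of acetyltransferases, ran from 10.71 to 10.99 in water (median 10.85), 10.46 to 10.83 with limited access (median 10.62) and 10.52 to 10.85 with continuous ethanol (median 10.62). It fell by 0.22 (SE 0.04, adjusted p = 0.00893, limma), and 8 of 10 arrays of each schedule were below every water array. Without the 5 arrays that stood apart, 3 of them water, neither gene passed. Lims2 then differed by -0.19 (adjusted p = 0.214, limma) and Nat8f3 by -0.20 (adjusted p = 0.194, limma). These adjusted p-values were the largest over their alternatives. Array weights also ended the call of Lims2.

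The 2 unnamed probe sets of smallest p among the fallers were 1396029_at and 1380527_at. Probe set 1396029_at ran from 9.55 to 9.89 in water (median 9.76), 9.10 to 9.61 with limited access (median 9.37) and 8.39 to 9.28 with continuous ethanol (median 9.09), a fall of 0.53 (SE 0.08, adjusted p = 6.7e-04, limma). Probe set 1380527_at ran from 8.40 to 8.87 in water (median 8.68), 8.11 to 8.53 with limited access (median 8.33) and 7.66 to 8.27 with continuous ethanol (median 7.99), a fall of 0.47 (SE 0.07, adjusted p = 6.7e-04, limma). In both, no continuous array overlapped the water arrays and most limited arrays lay below them as well. The unnamed riser 1386995_at rose by 0.57 ± 0.11 (SE, adjusted p = 0.0223, limma), and the remaining unnamed fallers fell by 0.17, 0.35 and 0.49.

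**Figure D2:**
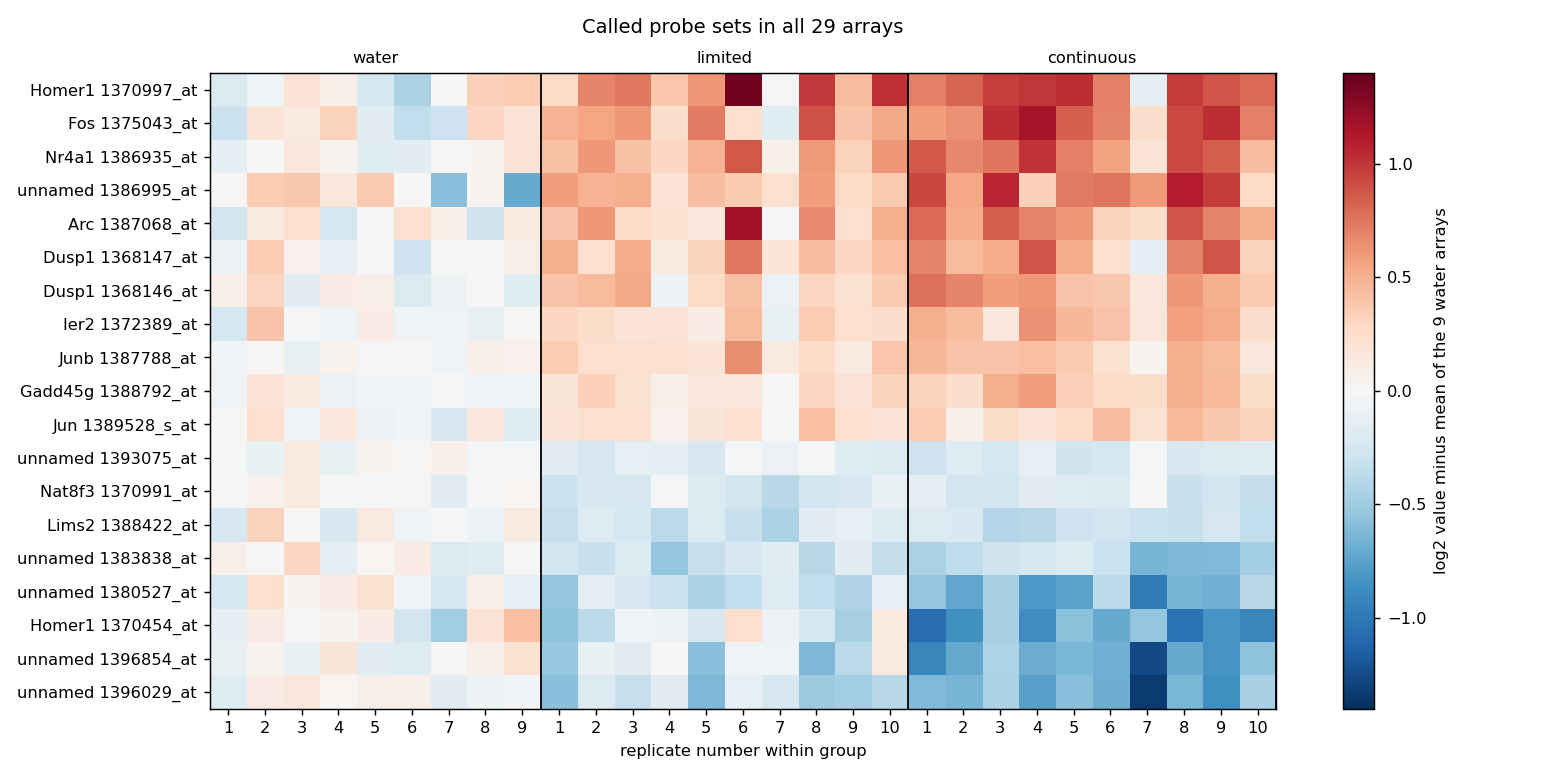
Deviation of each array from the water mean (colour, log2 units) for the 19 called probe sets (rows), with arrays in columns grouped as water, limited access and continuous ethanol. Most columns of both ethanol groups share one colour within the risers and the other within the fallers. Limited replicate 7, limited replicate 4 and continuous replicate 7 stand out, with 1, 3 and 3 of 11 risers above every water array.

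The arrays differed in how many of the called probe sets lay outside the water range. The probe sets were picked on these same arrays, and the source of the spread in these counts was not tested. Of the 11 risers, a continuous array had 3 to 11 above every water array (median 10) and a limited array 1 to 10 (median 7). The lowest counts were 1 in limited replicate 7, and 3 in each of limited replicate 4 and continuous replicate 7. Of the 8 fallers, continuous arrays had 6 to 8 and limited arrays 3 to 8 below every water array. Over all 21730 probe sets, 0 had all 20 ethanol arrays on one side of all 9 water arrays. All 20 ethanol arrays were past the water mean for 94 probe sets (0.433%), and for 10 of the 19 called.

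A response common to both schedules needs a change in each of them. The pooled test does not require this, and the comparisons of the schedules with water share the 9 water arrays. In 18 of the 19 called probe sets each schedule differed from water in the same direction at an unadjusted p under 0.05 (limma). The exception was Homer1 1370454_at (limited access -0.17 ± 0.11, p = 0.121, limma). The 19 were picked on the pooled difference in these same arrays, so this count is no separate evidence of a common response. A stricter test took the larger p of the schedules and adjusted it over all probe sets, and it called 0 (smallest adjusted p = 0.316, limma, shared by Nr4a1, Nat8f3 and Junb), against 458 (2.11%) at an unadjusted p under 0.05. With array weights it called 1, Nr4a1 (adjusted p = 0.0206). Taken alone, limited access against water called 0 of 21730 (smallest adjusted p = 0.234, limma; 965 probe sets, or 4.44%, at an unadjusted p under 0.05) and continuous ethanol against water called 33 (0.152%). The 19 pooled calls were all among those 33, so the pooled list adds no probe set that continuous ethanol alone did not call.

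**Figure D3:**
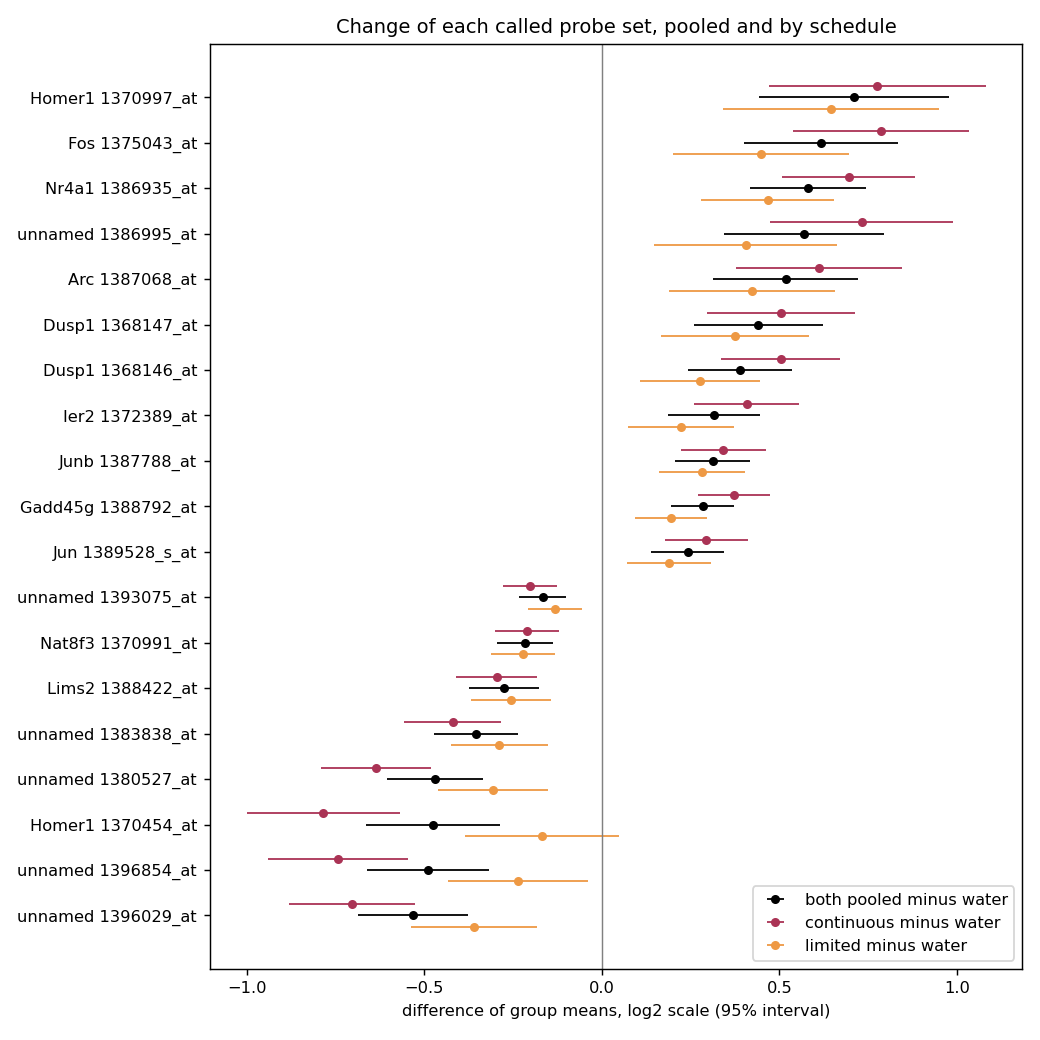
Difference from water (horizontal axis, log2 scale) of the 19 called probe sets (rows), for both schedules pooled (black), continuous ethanol (dark red) and limited access (orange), with 95% intervals. All 3 differences share the 9 water arrays. The limited access point lies nearer to 0 than the continuous one in every row but Nat8f3, and the limited interval of Homer1 1370454_at includes 0.

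The limited access difference was smaller in size than the continuous one in 18 of the 19 called probe sets, the exception being Nat8f3. Over all tested probe sets this held for 63.4%. As a share of the continuous difference, the limited difference was 52.4% to 83.2% among risers and 21.5% to 105% among fallers, with a median of 64.4% over all 19. The direct test compared the means of the schedules without the water arrays, which entered only its estimate of the spread. It called 1 of 21730 probe sets (0.0046%), the falling Homer1 probe set 1370454_at. This was 0.62 ± 0.10 higher with limited access than with continuous ethanol (SE, adjusted p = 0.0340, limma). Against 9.31% of all probe sets, 10 of the 19 had an unadjusted p under 0.05 between schedules.

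For the other genes, the interval of the schedule difference shows what cannot be told apart. For Fos, limited minus continuous was -0.34 (95% interval -0.58 to -0.10, unadjusted p = 0.00781, adjusted p = 0.525, limma). For Nr4a1 it was -0.23 (-0.41 to -0.05) and for Gadd45g -0.18 (-0.28 to -0.08), each with an adjusted p of 0.525 (limma). The intervals included 0 for Arc (-0.42 to 0.04), Junb (-0.18 to 0.06), Homer1 1370997_at (-0.43 to 0.17), Lims2 (-0.07 to 0.15) and Nat8f3 (-0.10 to 0.08). In all, 9 of the 19 intervals included 0. For these 5, a schedule difference as large as the pooled change lay outside the interval.

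The list of immediate early transcription factors had 23 genes, of which 20 were measured above the filter. Like the other lists, it was written with earlier results of these data known. Its counts therefore describe the members and are not separate support for the calls. On the brightest probe set of each, 4 rose (Nr4a1, Junb, Fos and Ier2) and 0 fell, and 19 of 20 differences were above 0. Their median difference was 0.13, beside 0.00 over 11328 genes, of which 7 rose, 2 fell and 51.8% were above 0. The members that did not pass included Tgif1 (0.23 ± 0.05, adjusted p = 0.0523, limma), the nearest gene outside the threshold, Klf2 (0.28 ± 0.09) and Egr2 (0.24 ± 0.09). Egr1, which follows synaptic input closely, differed by 0.08 ± 0.06, Fosb, whose truncated product accumulates with repeated drug exposure, by 0.03 ± 0.08, and Egr3 by -0.12 ± 0.06. Nr4a3, a close relative of Nr4a1, differed by 0.10 on its brightest probe set and by 0.44 ± 0.11 on 1369217_at (adjusted p = 0.130, limma).

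The list of activity-regulated effectors and feedback inhibitors had 24 measured genes of 27. Gadd45g, Dusp1 and Arc rose and 0 fell, and the median difference was 0.03 (0.004 with continuous ethanol and 0.06 with limited access). Homer1 here and Jun in the list of transcription factors passed on a dimmer probe set only, and so are not in these counts. Dusp6, a phosphatase specific for ERK, differed by 0.14 ± 0.05 on its brightest probe set and 0.22 ± 0.05 on 1377064_at (adjusted p = 0.103, limma). Other well-known members did not pass, with differences of 0.06 for Plk2, 0.12 for Ptgs2, 0.02 for Rgs2 and -0.01 for Bdnf. At an unadjusted p under 0.05 (limma), 6 of the 24 were higher and 2 lower, beside 6.09% and 4.58% of all 11328 genes. The lowest difference in the list was -0.15, that of Per2. In the list of MAP kinases and CREB, the machinery upstream of these genes, 0 of 19 measured genes rose or fell, with a median of -0.01.

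**Figure D4:**
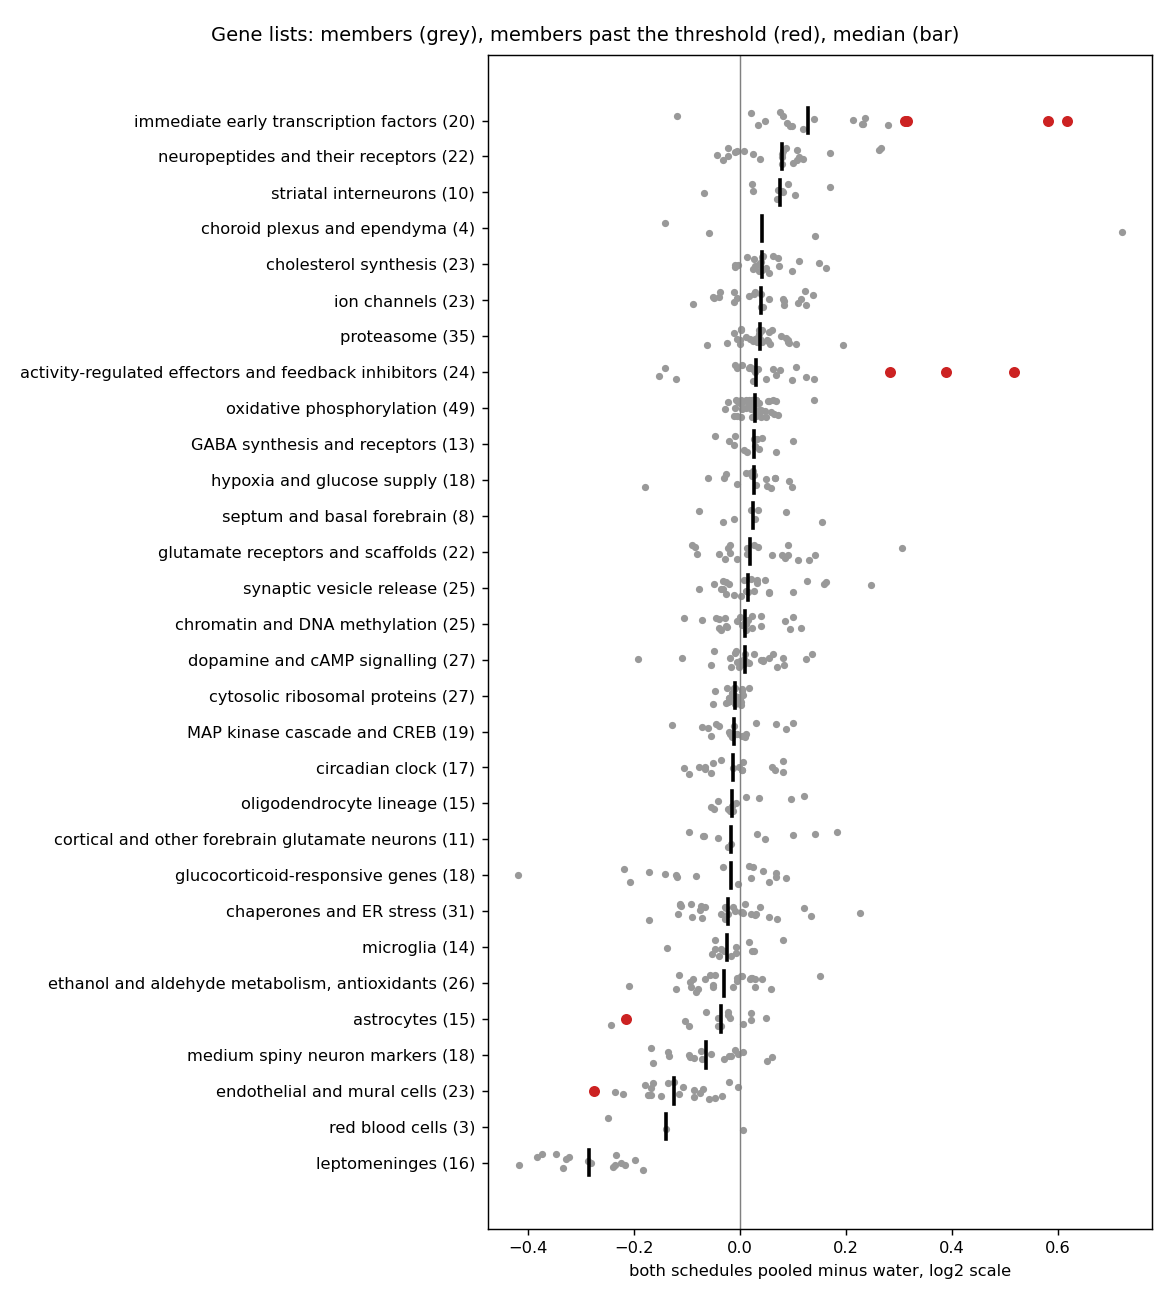
Pooled ethanol minus water difference (log2, horizontal axis) of the members of each gene list (grey points; red where past the threshold), with the median of each list as a bar. The immediate early transcription factors have 4 red points, all to the right of 0, and the lists of leptomeningeal and of endothelial and mural cell markers lie to the left of 0.

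The remaining pathway lists held 0 genes that rose or fell. For dopamine and cAMP signalling, 0 of 27 genes passed, and for medium spiny neuron markers 0 of 18, with a median of -0.06. Drd1 and Drd2, the main dopamine receptors of these neurons, differed by -0.02 and -0.13, and the peptide precursors Penk, Pdyn and Tac1 by -0.02, -0.01 and -0.00 on their brightest probe sets (adjusted p = 0.432 to 0.987, limma, with Drd2 the smallest). At an unadjusted p under 0.05 (limma), 6 of 18 of these markers were lower and 0 higher, beside 4.58% and 6.09% of all 11328 genes. Among the lower ones were Rgs9 (-0.17 ± 0.05) and Rasd2 (-0.16 ± 0.06). The median of this list was -0.09 with continuous ethanol and -0.03 with limited access. Glutamate receptors and scaffolds had 0 of 22 at that level in either direction, and GABA synthesis and receptors 0 of 13.

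Several metabolic lists leaned to one side without any member passing the adjusted threshold. Proteasome genes had 7 of 35 higher and 0 lower at an unadjusted p under 0.05 (median 0.04), with Psmc6 at 0.19 ± 0.06. Cholesterol synthesis had 6 of 23 higher and 0 lower (median 0.04), with the isomerase Idi1 at 0.15 ± 0.03 (adjusted p = 0.0711, limma) and Insig1, the sterol-sensing brake on the pathway, at 0.11 ± 0.03. Oxidative phosphorylation had 6 of 49 higher and 0 lower (median 0.03). With continuous ethanol the medians were 0.05 for proteasome, 0.07 for cholesterol synthesis and 0.03 for oxidative phosphorylation genes. With limited access they were 0.03, 0.02 and 0.02. Over all 11328 genes, 6.09% were higher and 4.58% lower at that level.

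In the other direction, chaperones and endoplasmic reticulum stress genes had 7 of 31 lower and 0 higher at an unadjusted p under 0.05 (median -0.02), with the endoplasmic reticulum chaperone Hspa5 at -0.12 ± 0.04 and Creld2 at -0.11 ± 0.04. The median of this list was -0.03 with continuous ethanol and -0.01 with limited access. Without the 5 arrays that stood apart on the second component, the pooled median was 0.009, so this leaning did not hold there. Glucocorticoid-responsive genes had 6 of 18 lower and 0 higher (median -0.02, or -0.05 with continuous ethanol and -0.003 with limited access). These included Angptl4 (-0.22 ± 0.05, adjusted p = 0.130, limma), Fkbp5, a chaperone of the glucocorticoid receptor (-0.21 ± 0.05), and Tsc22d3 (-0.12 ± 0.03). Per gene these differences did not pass.

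Most markers of vessels and meninges had values below those of water without passing the test. Of 23 measured endothelial and mural cell genes, 1 fell (Lims2, which entered the list with its earlier result known), 11 were lower at an unadjusted p under 0.05 and 0 had a difference above 0, with a median of -0.12. Slc2a1, the glucose transporter of brain endothelium, differed by -0.18 ± 0.04 (adjusted p = 0.0925, limma) and Cldn5, a tight junction protein, by -0.17 ± 0.06. The median difference of this list was -0.16 with continuous ethanol and -0.08 with limited access. The mean deviation of these markers per array ran from -0.08 to 0.39 in water (median 0.06) and from -0.33 to 0.16 in the ethanol arrays (median -0.04). Of 16 leptomeningeal markers, 0 passed and 0 were above 0, with a median of -0.29 (-0.34 with continuous ethanol and -0.28 with limited access). Their mean deviation per array ran from -0.25 to 0.98 in water (median 0.14) and from -1.50 to 0.68 with ethanol (median -0.12). The value of -1.50 was that of continuous replicate 3 alone, and 0.98 that of water replicate 2. In bulk tissue, fewer cells of a type and less RNA per cell cannot be told apart. With the leptomeningeal score of each array as a covariate, 12 of the 19 calls passed, among them Fos, Nr4a1, Junb, Gadd45g and Ier2, while 7 were lost. The sizes of the lost named calls with that covariate were 0.48 for Arc (adjusted p = 0.0711, limma), 0.25 for Jun (0.0711), 0.63 for Homer1 1370997_at (0.0621), and 0.37 and 0.43 for the Dusp1 probe sets (0.0544 and 0.0874). Without the covariate they were 0.52, 0.24, 0.71, 0.39 and 0.44.

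Astrocyte markers had 1 of 15 that fell, Nat8f3, which was put on the list with its earlier result known, and a median of -0.04. Microglial, oligodendrocyte, interneuron, septal and cortical neuron lists had 0 genes that passed. The largest pooled difference of all tested genes was that of Ttr, a choroid plexus transcript, at 0.72 ± 0.54 (SE, adjusted p = 0.642, limma). It rested on limited replicate 9 at 14.82 and continuous replicate 10 at 12.86, against a water mean of 8.66 ± 0.43 (SD, n = 9). With the Ttr level of each array as a covariate 18 probe sets were called, 16 of them among the 19.

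Levels of Fos were set against those of other called genes within each group. Correlations were computed for 12 called probe sets with Fos in each of the 3 groups, 36 relations in all, with permutation p-values adjusted over them. For Gadd45g in the 10 continuous arrays, Pearson's r was 0.84 (permutation p = 0.00177, adjusted p = 0.0319) and Spearman's rho 0.88 (permutation p = 0.00159, adjusted p = 0.0572), and r was 0.87 without the 2 arrays farthest from the Fos median. For Homer1 1370997_at, r was 0.86 (permutation p = 7.8e-04, adjusted p = 0.0281), rho 0.81 (permutation p = 0.00753, adjusted p = 0.136), and r was 0.75 without those arrays. For Nr4a1, r fell from 0.80 (permutation p = 0.00560, adjusted p = 0.0474) to 0.41 without them, and for Dusp1 1368147_at from 0.82 (permutation p = 0.00459, adjusted p = 0.0474) to 0.48, with rho at 0.62 and 0.70 (permutation p = 0.0607 and 0.0308, adjusted p = 0.264 for both), so both rest on those 2 arrays. Among the 9 rising probe sets the median r was 0.68 with continuous ethanol, 0.47 with limited access and 0.45 in water, where 4, 0 and 0 relations passed on Pearson's r. Among the fallers 1 relation passed, that of Lims2 in the limited access arrays, which was positive (r = 0.78, permutation p = 0.00659, adjusted p = 0.0474). Its rho was 0.60 (permutation p = 0.0733, adjusted p = 0.264) and r was 0.51 without the 2 farthest arrays, on which it rests. The difference between the groups in these correlations was not tested.

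The calls differed in how far they held. Fos, Nr4a1, Junb, Gadd45g and the unnamed 1380527_at and 1396029_at passed under every alternative that tested them and with each of the 29 arrays left out in turn. Jun was lost in 20 of 29 such fits, Dusp1 1368147_at and Ier2 in 15 each, Homer1 1370454_at in 5 and Arc in 3. Without limited replicate 6, which had the highest Junb level (10.32), 34 probe sets were called, including all 19. Without the 5 arrays that stood apart on the second component 11 were called, all among the 19. The 8 calls lost there were Lims2 and Nat8f3 as given above, Homer1 1370997_at (0.58, adjusted p = 0.144, limma), Homer1 1370454_at (-0.51, 0.0927), Dusp1 1368147_at (0.44, 0.189), Jun (0.27, 0.0908) and the unnamed 1383838_at (-0.35, 0.0927) and 1393075_at (-0.18, 0.0896). With the array SD as a covariate, Homer1 1370997_at also missed the threshold (0.66, adjusted p = 0.0550, limma), as did the other Homer1 probe set, both Dusp1 probe sets, Ier2, Jun and the unnamed 1386995_at and 1393075_at. Without continuous replicate 7, the lowest of its group on Homer1 1370997_at, 25 were called, including all 19.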

How the data were processed

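Values were the log2 expression values that the authors deposited, made from array intensities by RMA (background correction, quantile normalization and probe summary), per the submitters' processing notes. The range of the values gave the log base. RMA version, array batches and dates are not given in the sources used here. Since RMA makes array distributions nearly equal, a shift shared by all transcripts cannot be seen. Precision is limited by how many arrays there are.

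Of 31099 probe sets, 57 controls and those with a mean over all arrays at or below 6.86 (the dimmest 30 percent) were left out, and 21730 were tested. A platform table gave 1 symbol to 20832 probe sets, several to 436 and none to 9831, and 20764 symbols matched by gene ID a GRCr8 gene table used for names. A gene in a list was represented by its brightest tested probe set.

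All 29 arrays entered 1 three-group model (lmFit and eBayes, limma 3.58.1, statmod 1.5.0, R 4.3.3) with contrasts of the mean of both schedules against water, of each schedule against water and between schedules, two-sided, with Benjamini-Hochberg adjustment over all tested probe sets and a threshold of 0.05. Intervals are 95%. The fit was tested on simulated data. Named genes were the 15 largest past the threshold in each direction (filled to 5 by p), up to 4 per list by p, and Fos, Homer1, Drd1, Drd2, Penk, Pdyn, Tac1 and Bdnf. Other list members and Ttr were named after their values were seen. The members and lists were chosen with earlier results of these data known. Alternatives changed the filter, normalization, prior, array weights, covariates, blocks, probe sets per gene and arrays included.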

Additional observations from a re-analysis of the deposited data

Results flagged for a closer look

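The lowest and highest values of named probe sets were checked within groups of 9 or 10 arrays. Of 117 sets (1 probe set in 1 group), 12 held a value far from the rest. For independent sets chance gives about 1 in 20. These sets share arrays and partly genes, and Ttr was added after its values were seen, so that rate is no fair comparison. Continuous replicate 7 was the lowest of its group on Homer1 1370997_at (9.52), on the unnamed 1396029_at (8.39) and on 2 probe sets of LOC100911253 (8.01 and 9.50). Water replicate 2 was the lowest of its group on Penk (13.32), Tac1 (12.15) and both Pdyn probe sets (7.80 and 11.22). Limited replicate 6 was the highest of its group on Junb (10.32) and on Bdnf 1368678_at (7.74). Ttr was far above its group in limited replicate 9 (14.82) and continuous replicate 10 (12.86).

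The falling Homer1 probe set 1370454_at differed between the schedules in a direct test, being 0.62 higher with limited access than with continuous ethanol (adjusted p = 0.0340, limma).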

How the results depend on the processing

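Against 19 probe sets called, the pooled count was 12 with the replicate block, 12 with the array SD and 12 with the leptomeningeal score as a covariate, 11 when the 5 arrays that stood apart were left out, and 10 with 1 probe set per gene, where 9 of the 19 could be tested and all 9 passed. It lay between 14 and 24 in the other alternatives and between 13 and 34 with 1 array left out. The count between schedules, 1, was 0 with the replicate block, with the 3 prime minus 5 prime or array SD covariate, with the 5 arrays as a block or left out and with 1 probe set per gene, 2 with the leptomeningeal covariate, and 0 to 3 with 1 array left out. The test requiring both schedules called 1 with array weights and 0 with each array left out. No called value reversed. The cause of these changes was not tested. The Ttr covariate was chosen after seeing the data.

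Samples of the same replicate number in different groups correlated at -0.243 to 0.343 in their deviations (28 pairs, median 0.0778, 12 over 0.1). Pairs of differing number were not computed for comparison, so whether the numbers pair the arrays was not tested. The replicate block ended the calls of Arc, Ier2, Jun, Nat8f3, Dusp1 1368147_at, Homer1 1370454_at and the unnamed 1393075_at.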
